A study of Mus musculus with 24 samples.

Results

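The genes encoding cytoplasmic ribosomal proteins were followed by SLAM-seq in mouse preleukemic cells with and without TUT4 and TUT7. They were chosen by symbol alone: Rpl or Rps followed by a number and, for some, a letter and a further number, with symbols taken from the RefSeq accession of each 3′UTR. The rule found 80 genes among 20868 (49 Rpl genes of the large subunit and 31 Rps genes of the small subunit). Genes of the cytoplasmic ribosome with other symbols, such as Rpsa, Rplp0 and Fau, are not members and are given for comparison.

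In SLAM-seq, newly made RNA takes up 4-thiouridine (4SU), which is alkylated and then sequenced as C where the gene has T. The conversion rate of a gene is the percent of covered T positions in its 3′UTR that were read as C. All cells were C57BL/6 c-Kit+ E14.5 fetal liver cells transformed with retroviral Meis1 and Hoxa9, used as bulk cultures and not as clones. Per the study's methods, all cells carried floxed alleles of Tut4 and Tut7 (Tut4fl/fl;Tut7fl/fl). Control cells had no Cre, and cells labelled Tut4/7 Vav-iCre cDKO (cDKO) carried Vav-iCre, a Cre driven by the Vav promoter in blood cells, which deletes both genes. Label was given for 12 h and then removed, and cells were taken 0, 60, 180 and 540 min later (the chase), with 3 replicates of each of the 8 groups. The study describes the replicates as biological triplicates. The labels give each library a batch, named by its chase time. Genotypes were therefore compared within a batch, whereas chase time and batch cannot be told apart.

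Ribosomal proteins assemble with ribosomal RNA into the small subunit, which decodes mRNA, and the large subunit, which forms peptide bonds. Their mRNAs are among the most abundant in growing cells and are known to be long-lived. Most begin with a C followed by a run of pyrimidines, the 5′ terminal oligopyrimidine (TOP) tract, through which mTOR and LARP1 tune their translation and stability.

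Start-site windows are shown for the members called in abundance at each chase time (Rps3a1, Rps3, Rpl34 and Rpl22l1) and for those whose conversion rate stood apart (Rpl14, Rpl26, Rps21 and Rpl7l1), because a TOP tract is the sequence feature this gene class is known for. Each window gives 10 bases before the annotated start and 20 bases from it, 5′ to 3′ on the gene's strand, in RefSeq's GRCm38.p6. Capitals mark the C/T run where one was found, that is, a C within 5 bases of the start followed by at least 4 further pyrimidines. They begin at the first such C within this limit. In Rpl14, Rpl22l1 and the downstream start of Rpl34, further C or T lie directly before it in lower case, so the whole C/T stretch begins earlier.
Rps3a1, chr3:86142649-86142678, minus strand: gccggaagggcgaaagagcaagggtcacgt
Rps3, chr7:99483690-99483719, minus strand: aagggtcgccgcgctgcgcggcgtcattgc
Rpl34, downstream start, chr3:130730318-130730347, minus strand: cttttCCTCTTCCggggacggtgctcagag
Rpl34, upstream start, chr3:130730379-130730408, minus strand: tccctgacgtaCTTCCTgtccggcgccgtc
Rpl22l1, chr3:28805498-28805527, plus strand: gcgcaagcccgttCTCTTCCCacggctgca
Rpl14, chr9:120571507-120571536, plus strand: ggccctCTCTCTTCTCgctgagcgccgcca
Rpl26, chr11:68901556-68901585, plus strand: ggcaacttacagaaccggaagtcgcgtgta
Rps21, upstream start, chr2:180257369-180257398, plus strand: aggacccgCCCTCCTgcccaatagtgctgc
Rps21, downstream start, chr2:180257439-180257468, plus strand: agtgagcaggtaggcctcggtgcgggctgt
Rpl7l1, chr17:46782637-46782666, minus strand: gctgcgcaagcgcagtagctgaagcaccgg

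A run was found at both starts of Rpl34, at 1 of the 2 starts of Rps21, and in Rpl22l1 and Rpl14. Rps3a1, Rps3, Rpl26 and Rpl7l1 had none in these windows. The promoter table matched 61 of the 80 members, with 73 starts, and 31 starts (42.5%) had a run, in 29 genes (47.5%). Over all 27025 genes in the table, 18.3% of 32851 starts had one. The share was 22.7% of 75 starts for the mitochondrial ribosomal proteins, 15.6% of 45 for ribosome biogenesis factors, and 44.4% of 9 for translation factors and other TOP genes. These are matches of letters at annotated starts, and RefSeq starts can lie some bases away from the start in use.

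Ribosomal protein mRNAs were abundant, with 5.74–6.97% of all reads in 3′UTRs in any library. The share was 6.20–6.66% in control (median 6.46%) and 5.74–6.97% in cDKO (median 6.31%). The 24 libraries held 4380238 to 7041311 such reads (median 5321078). Reads came from 78 members, and Rpl10l and Rpl39l had 0 reads, which allows a level of up to 0.0232 CPM (read counts scaled to the reads in 3′UTRs of a library) over all libraries. The most abundant at 0 min in control was Rpl41, encoding a very short large-subunit protein, with 5.65% of the members' reads. Its replicates were at 3693, 3518 and 3528 CPM in control and 3736, 4554 and 3434 CPM in cDKO. Rps14 followed with 4.85% (3543, 2889 and 2789 CPM in control and 3644, 5130 and 3889 CPM in cDKO). Rps29 held 4.79%, Rpl32 4.69% and Rps20 4.22%. Replicates of these genes overlapped between genotypes, except that all 3 cDKO values of Rps14 lay above the control values.

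The 3′UTR intervals of members were short, with a median of 78 bases (range 28–4726) against 790 over all genes. At most 100 bases were covered in 47 members, against 9.28% of genes. Of the 80 members, 72 lay on 1 interval and 8 on several. A total of 72 members had a T coverage (T positions summed over reads) of at least 100 in every library. These entered the rate comparisons, and Rpl10l, Rpl11, Rpl28, Rpl32l, Rpl35, Rpl39l, Rpl3l and Rps27 did not. Each test applied the limit to its own libraries, so the members tested differ, and Rps27 entered the control decay test. Rpl11, whose protein binds MDM2 with RPL5 and 5S ribosomal RNA, had only 212 reads in all, and its rates could not be read at this depth.

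Processed pseudogenes share sequence with ribosomal protein mRNAs, and 42.5–44.0% of the members' reads mapped to several places, against 6.72–8.01% for all other genes. The members thus took 26.8–30.5% of all multimapping reads. The share differed widely between members. In 30 members it was under 10%, in 28 it was 10–90%, and in 20 it was over 90%. Rps29 (99.8%), Rps3a1 (99.6%), Rpl10a (99.5%), Rpl10 (99.4%) and Rps18 (99.3%) had the highest shares. Values of such genes may include reads of near-identical copies. Where read counts are used, Rpl31, Rpl35, Rpl5, Rpl32 and Rps25 overlap a gene on the other strand (Tbc1d8, Wdr38, Dipk1a, Cand2 and Ccdc84).

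Before the comparisons, the deleted genes and markers of other cells were checked. Tut4 was at 68.1–105 CPM in control and 17.8–40.0 CPM in cDKO, and Tut7 at 34.6–66.1 and 16.7–33.3 CPM. Both were thus lower in every cDKO library, without reaching 0. The 3′UTR intervals were not placed relative to the deleted exons. Myeloid progenitor markers (12 genes, of which Meis1 was at 0 in control) summed to 10924–12337 CPM in control and 6853–9685 CPM in cDKO. The lower sum did not hold for each gene: of 11 tested, 4 were called lower and 1 higher in cDKO at 0 min, and Hoxa9 was at 1946–2801 CPM in control and 3377–6543 CPM in cDKO. Erythroid markers (9 genes, of which 6 were at 0 in control, among them Hba-a2, Hbb-bs, Alas2, Gata1 and Epor) summed to 0.372–3.07 CPM in control and 1307–2091 CPM in cDKO, nearly all of it Hbb-bt (1300–2075 CPM in cDKO). Mast cell and basophil markers were at 16.7–35.2 against 147–322 CPM, macrophage markers at 66.9–109 against 192–302 CPM (of 3 of 6 tested, 1 was higher and 2 lower at 0 min, and Mrc1, C1qa and C1qb were at 0 in cDKO), and hepatocyte markers at 0.929–3.64 against 3.38–8.55 CPM. In bulk cells, a changed share of a cell type and a changed level per cell cannot be told apart. The part of these markers in the genotype differences below was not tested.

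At the end of labelling, ribosomal protein mRNAs carried fewer conversions than the library as a whole. With conversions and T positions of all members pooled, the rate at 0 min was 0.971%, 0.997% and 0.975% in the 3 control libraries, while the library-wide rates were 1.62–1.67%. In cDKO the members were at 0.512%, 0.554% and 0.372%, and the library-wide rates were 0.542–0.845%. Replicate 3 of cDKO was the lowest at each time, for the members and for the whole library. Relative to the library-wide rate, the members' median was 0.611, 0.589 and 0.602 in control and 0.572, 0.603 and 0.582 in cDKO. The genotypes thus overlapped on this relative scale. Of the 72 members, 63 to 67 per control library and 60 to 63 per cDKO library lay below the library-wide rate. The share of reads with a conversion was 15.3% in the median member against 31.7% in the median of other genes in control, and 7.42% against 16.0% in cDKO.

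The lower labelling of cDKO cells was seen in members and in other genes alike. On the log2 scale, the cDKO rate at 0 min over the control rate had a median of -1.17 in members (range -2.97 to 0.05), with 70 of 72 lower in cDKO. Over 9184 other genes the median was -1.15, and 9095 were lower.

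**Figure D1:**
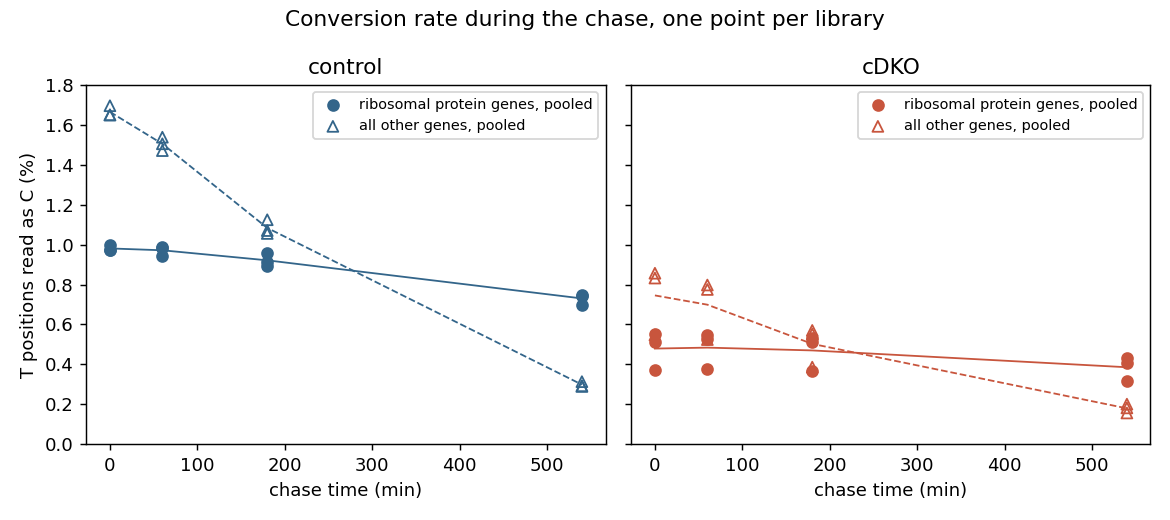
Conversion rate (percent of covered T positions) by chase time in minutes, for the ribosomal protein genes pooled and for all other genes pooled, with 1 point per library and lines through the means of control and cDKO. In control the members started below the other genes and ended above them, at 0.698–0.749% against 0.289–0.314% at 540 min, and the same crossing is seen in cDKO.

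Over the chase, members kept their label while the rest of the library lost it. The pooled control rate was 0.971–0.997% at 0 min, 0.943–0.989% at 60 min, 0.893–0.958% at 180 min and 0.698–0.749% at 540 min. The cDKO rates were 0.372–0.554%, 0.377–0.548%, 0.368–0.531% and 0.317–0.431%. Library-wide rates at 540 min were 0.305–0.330% in control and 0.162–0.209% in cDKO. At that time only 3 to 5 members per control library and 5 to 10 per cDKO library lay below the library-wide rate, and the median member stood at 2.23, 2.19 and 2.25 times that rate in control and 1.78, 1.60 and 1.49 times in cDKO.

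The rate left at 540 min, as a percent of the 0 min rate of the same genotype and replicate number, was computed for the 67 members with conversions in all 6 libraries at 0 min. It left out Rpl12, Rpl36, Rpl30, Rps19 and Rpl9, which have coverage but no conversion in a 0 min library. The median was 72.8% in control (2.44–126%) and 74.2% in cDKO (4.49–122%). The replicate medians were 72.2%, 74.2% and 69.2% in control and 73.9%, 73.1% and 72.2% in cDKO, and so overlapped. Over 50% was left in 64 members of each genotype. Among 8714 other genes the median was 7.81% in control and 13.9% in cDKO, and over 50% was left in 4.52% and 10.1% of them. At 60 min the members' medians were 100.6% and 101.8%, against 90.7% and 95.5% in other genes. At 180 min they were 95.7% and 98.3%, against 56.5% and 62.7%.

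**Figure D2:**
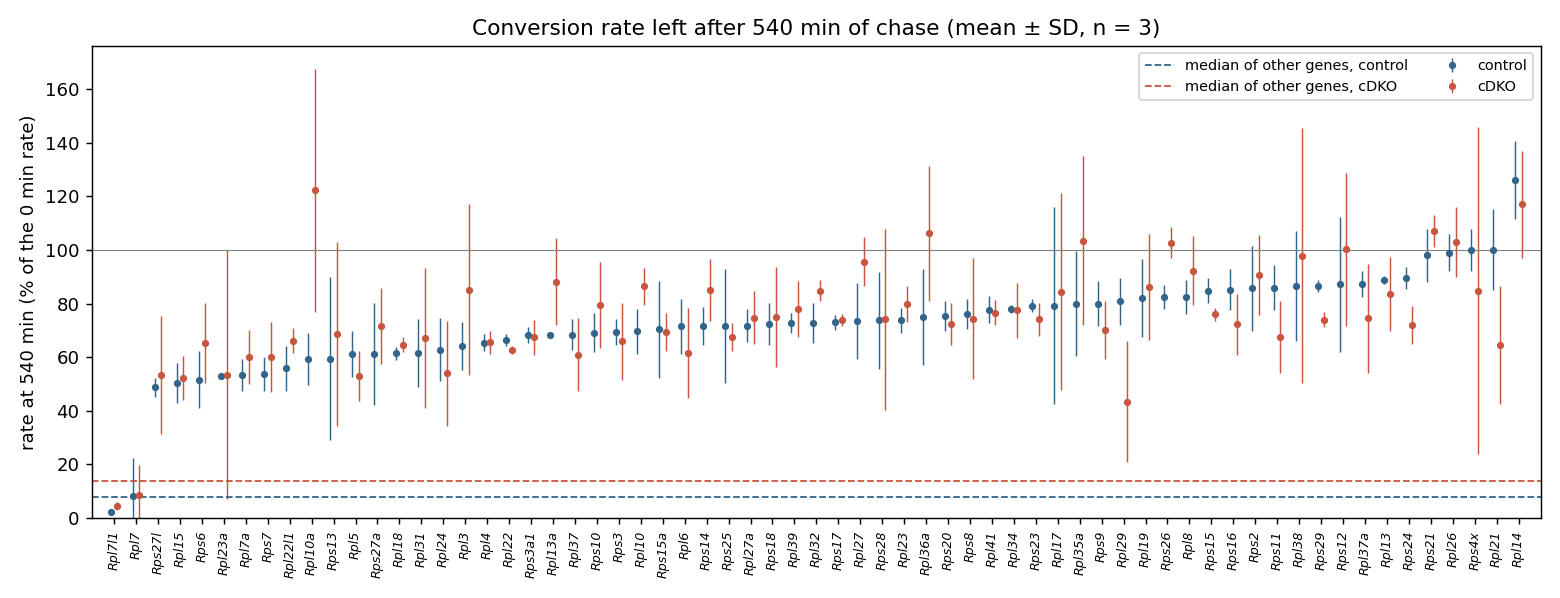
Conversion rate left at 540 min for 65 of the 67 members, as percent of the 0 min rate of the same genotype and replicate number, in order of the control value (points and bars are mean and SD, n = 3). Dashed lines are the medians of other genes, at 7.81% in control and 13.9% in cDKO, and most members lay over 50%, with Rpl7l1 the lowest in control at 2.44%.

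The slow loss was tested per gene with the edgeR quasi-likelihood test, in which a gene's conversions per covered T were followed over the hours of chase against the library-wide rate. In control, 69 of 72 members lost label more slowly than the library (adjusted p under 0.05) and 1 more quickly, in a table where 67.0% of 9302 genes passed in either direction and 10.4% passed as slower. In cDKO, 65 of 69 members were slower and 2 were quicker, against 55.0% of 8469 genes in either direction and 11.0% as slower. The median relative slope was 0.22 log2 per hour for members and -0.15 for all genes in control, and 0.17 and -0.11 in cDKO. The call held in every setting that tested it for 56 of the 70 members called in control and 47 of the 67 in cDKO. Of the 30 members with under 10% multimapping reads, not all of which had the coverage to be tested, 23 were called in each genotype. These calls are in either direction, and include Rpl7l1, faster in both genotypes, and Rpl7, faster in cDKO. The 540 min rate left also had a like median in each multimapping class: 72.8%, 73.7% and 72.7% in control for members under 10%, from 10 to 90% and over 90%, and 78.7%, 74.2% and 73.9% in cDKO.

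A few members stood apart. Rpl7l1, encoding a relative of RPL7, lost label faster than the library, with a slope of -0.34 log2 per hour in control (SE 0.03, adjusted p = 8.0e-09) and -0.26 in cDKO (SE 0.04, adjusted p = 2.1e-07). Its rates were 1.66%, 2.16% and 1.62% at 0 min and 0.0450%, 0.0333% and 0.0495% at 540 min in control. In cDKO they were 1.02%, 1.06% and 0.657%, then 0.0275%, 0.0547% and 0.0368%. Only 2.44 ± 0.796% of its rate was left in control and 4.49 ± 1.57% in cDKO (SD, n = 3). Each of the 6 libraries at 540 min lay far below each of the 6 at 0 min. Its 3′UTR was 1841 bases long, longer than those of most members, and 0.328% of its reads were multimapping.

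Rpl7 had a slope of -0.29 in cDKO (SE 0.12, adjusted p = 0.0467, up to 0.0920 over the settings), which was called, and of -0.22 in control (SE 0.12, adjusted p = 0.101), which was not. The difference between genotypes was -0.02 (adjusted p = 0.951). Its level was low, at 12.4, 10.5 and 8.95 CPM in control at 0 min, with 28 conversions in those libraries. Its rates there were 0.706%, 1.55% and 0.737%, and 0.172%, 0% and 0% at 540 min. Rps19, a small-subunit protein mutated in Diamond-Blackfan anemia, was at 8.94 ± 0.554 CPM, and its slope of 0.11 log2 per hour in control was not called (SE 0.09, adjusted p = 0.287).

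Rpl14, encoding a large-subunit protein, had a conversion rate that did not fall over the chase. Its rates were 2.64%, 2.12% and 2.41% at 0 min in control and 3.20%, 3.02% and 2.76% at 540 min. In cDKO they were 2.33%, 2.92% and 2.08%, then 3.02%, 2.74% and 2.66%. It had the highest 0 min rate of the members relative to the library (1.46 times in control and 3.38 times in cDKO), and the genotypes overlapped in the rate itself. Reads with a conversion were 27.4% at 0 min and 34.1% at 540 min in control, and 28.2% and 32.4% in cDKO. Rpl26, at the subunit's peptide exit, was at 1.87%, 2.08% and 1.97% at 0 min and 1.99%, 1.92% and 1.95% at 540 min in control. In cDKO it was at 1.43 ± 0.195% and 1.46 ± 0.131% (SD, n = 3). Rps21, of the small subunit, was at 1.47 ± 0.0523% at 0 min and 1.44 ± 0.110% at 540 min in control, and at 1.11 ± 0.112% and 1.18 ± 0.0798% in cDKO. The 0 min and 540 min libraries of these 3 genes overlapped in control for Rpl26 and Rps21, and did not for Rpl14. For comparison, Rps29 went from 0.652 ± 0.0269% to 0.564 ± 0.0309% in control (SD, n = 3), and Rpl5 from 1.10 ± 0.105% to 0.665 ± 0.0373%. The conversion rate in cells without 4SU was not analysed here. Whether the conversions of Rpl14, Rpl26 and Rps21 were 4SU label was therefore not tested.

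**Figure D3:**
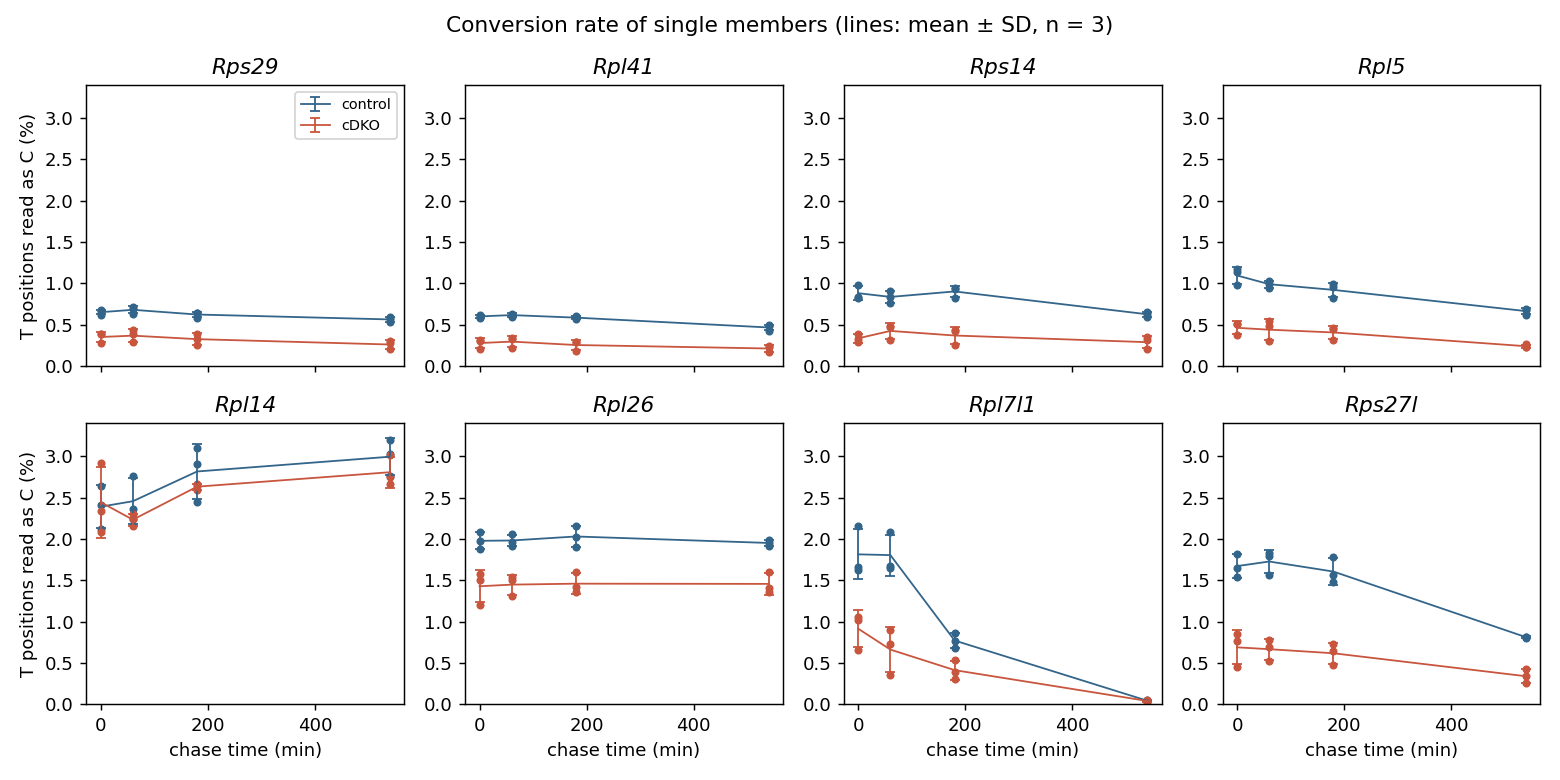
Conversion rate (percent of covered T positions) by chase time in minutes for Rps29, Rpl41, Rps14, Rpl5, Rpl14, Rpl26, Rpl7l1 and Rps27l, with points for each replicate of control and cDKO and lines for mean and SD (n = 3). Rpl7l1 was at 0.0275–0.0547% in the 6 libraries at 540 min, Rpl14 did not fall, and the others fell part of the way or, for Rpl26, stayed level.

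A difference in the decay of label between genotypes was called for no member, or for 3, depending on the offset. With the edgeR interaction of genotype and hour, and T coverage alone as offset, 0 of 71 members were called, where 0.130% of 9207 genes were called. This fit had no replicate term, although replicate numbers pair the cDKO libraries over the chase. Library-wide rates at 0 min were 0.821%, 0.845% and 0.542% in cDKO replicates 1, 2 and 3. With this offset that spread stayed in the error of the test, so 0 calls do not show equal decay. With the library-wide rate in the offset as well, as in the other conversion tests, 3 of 71 members were called, each with a faster relative loss in cDKO, where 0.250% of genes were called in either direction and 0.163% in this one. They were Rps29 (-0.07 log2 per hour, SE 0.01, adjusted p = 0.00426), Rps24 (-0.07, adjusted p = 0.0473) and Rps9 (-0.07, adjusted p = 0.0473). From 0 to 540 min the mean library-wide rate went from 1.64% to 0.314% in control and from 0.736% to 0.187% in cDKO. As it fell less in cDKO, a gene with equal decay in both genotypes has a negative value with this offset. These calls are therefore relative to the library and do not show faster decay as such. With T coverage alone as offset, 1 member had an unadjusted p under 0.05 in edgeR, and DESeq2 called 0. In the edgeR fit with that offset, the median difference in slope was 0.00 log2 per hour for members and 0.07 for all genes. In the same fit, Rpl7l1 had a difference of 0.13 (SE 0.06, adjusted p = 0.289) and Rps4x one of -0.08 (SE 0.05, adjusted p = 0.427).

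Relative to the library-wide rate, 6 of 68 members had a higher conversion rate in cDKO at 0 min, and none a lower one, in a table where 0.318% of 8809 genes were called. Among them were Rpl14 (log2 1.20, SE 0.08, adjusted p = 8.1e-13), Rps21 (0.77, SE 0.13, adjusted p = 6.2e-04), Rpl26 (0.70, SE 0.08, adjusted p = 4.1e-07), Rpl8 (0.50, SE 0.07, adjusted p = 1.0e-05) and Rps29 (0.28, adjusted p = 0.0453), by edgeR. The members' median was 0.00, as over all genes. These values are relative to a library-wide rate that was lower in cDKO. With the T coverage alone as offset, which leaves that difference in, 63 of 68 members were called lower in cDKO, as were 84.6% of 8809 genes, among them Rps21 (-0.41), Rpl26 (-0.47) and Rpl8 (-0.66), and Rpl14 had an adjusted p of 0.883. Over all settings tried, this one and those that leave out a library included, the highest edgeR or DESeq2 adjusted p was 0.600 for Rps29, 0.0945 for Rps21 and 0.00496 for Rpl8. Rpl14, Rpl26 and Rps21 are also members whose rates did not fall over the chase.

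Half-lives were fitted with a single exponential in 3712 genes, 42 of them members (8 failed on coverage and 30 on the spread of the 0 min rates). The members' median in control was 1360 min, and in cDKO 1453 min, against 224 and 251 min over all genes. It lay at percentile 98.1 of all genes in control and 96.7 in cDKO. As 41 members in control and 40 in cDKO had half-lives over 540 min, these are extrapolated past the last time measured, and 3 and 8 members stood at the upper bound of 10000 min. In other genes 7.63% and 13.4% were over 540 min. The shortest half-lives in control were those of Rpl7l1 (170 min, and 144 min in cDKO), Rpl7a (648 and 840 min), Rps7 (695 and 611 min), Rpl5 (729 and 628 min) and Rpl22l1 (755 and 1349 min). Rpl14, Rps21 and Rpl26 were at the bound, and Rps24 (4958 min) and Rpl37a (3813 min) followed.

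The median log2 ratio of cDKO over control half-lives was 0.16 for members and 0.19 for all genes. With each replicate's own 0 min rate, cDKO over control replicates of the same number gave members' medians of 0.04, -0.03 and -0.00. No pairing by number was seen between genotypes, so these pairs are arbitrary and are not repeated measurements of the ratio. The members' ratio was 0 with 0.1% background subtracted (27 members past the filter) and 0 without the 540 min libraries (42 members). It was 0.33 without cDKO replicate 2 (41 members) and 0 without cDKO replicate 3 (61 members), so the sets of members differ. Without the 540 min libraries, 15 control and 20 cDKO half-lives stood at the bound of 10000 min, so this 0 does not show equal half-lives. Over all genes the ratio was 0.05, 0.16, 0.25 and 0.13, in the same order of settings. Of the members, 23 had longer and 16 shorter half-lives in cDKO. Replicate half-lives did not overlap, and were longer in cDKO, in 4 members (Rps10, Rpl13a, Rpl27 and Rps26), where this held for 17.0% of genes, and shorter in 4 (Rpl29, Rps29, Rps16 and Rps24), against 3.23% of genes. Rpl13a, whose protein is released from the ribosome to act in interferon-driven translation control, had control half-lives of 990, 1212 and 1013 min, and 1466, 10000 and 7998 min without TUT4 and TUT7. For Rps29 the control values were 3698, 2515 and 2359 min, and those of cDKO 1116, 1881 and 1189 min.

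**Figure D4:**
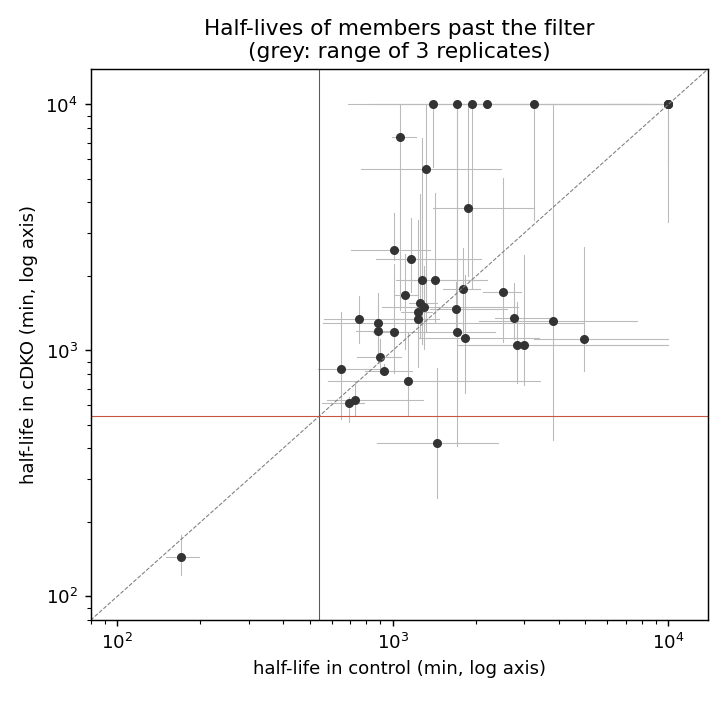
Half-life of each member in control and cDKO (minutes, log axes) for the 42 members, with grey lines for the range of 3 replicates, a dashed line of equality and lines at 540 min. All but Rpl7l1 (170 min in control) lay over 540 min in control.

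Abundance of the members was compared between genotypes at each chase time by edgeR on read counts, with median log2 changes of 0.03, -0.03, -0.04 and 0.03 at 0, 60, 180 and 540 min for members, and of 0.01, 0.00, 0.01 and -0.00 for all genes. At 0 min 6 of 75 members were called (5 lower and 1 higher in cDKO), a share below the 13.4% of genes called. At 60 min 7 of 76 were called (6 lower, 1 higher) where 20.2% of genes were. At 180 min 15 of 75 were called (12 lower, 3 higher) against 18.9%, and at 540 min 15 of 76 (8 lower, 7 higher) against 19.2%. Over the 4 times, 22 members were called at least once, 14 lower and 8 higher, and none in both directions. The same sign was seen at all 4 times in 35 of 75 members.

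Rps3a1, Rpl34, Rps3 and Rpl22l1 were called at each time, the first 3 lower and Rpl22l1 higher in cDKO. The highest edgeR or DESeq2 adjusted p was taken over the settings tried, those with a library left out included. At 0 min it was 0.646 for Rps3a1, 0.128 for Rpl34 and 0.0962 for Rps3. It was 0.0603 for Rps3 at 60 min, and 0.239 for Rps3a1 and 0.0985 for Rpl22l1 at 540 min, so these calls were not held in every setting. Of all calls, 1 of 6 at 0 min, 4 of 7 at 60 min, 5 of 15 at 180 min and 3 of 15 at 540 min (Rpl34, Rps3 and Rps9) held in every setting that tested them. Rps3a1, a small-subunit protein, was at 1891, 1737 and 1709 CPM in control and 1291, 1349 and 1102 CPM in cDKO at 0 min. At 540 min it was at 1833, 1985 and 1968 CPM against 1421, 1276 and 1331 CPM. Its log2 change was -0.50 at 0 min (SE 0.11, adjusted p = 0.0153), -0.72 at 60 min (adjusted p = 6.8e-05), -0.65 at 180 min and -0.53 at 540 min. As 99.6% of its reads were multimapping, the few unique reads gave -0.40 at 0 min, not called. Rpl34, of the large subunit, was at 1830, 1739 and 1861 CPM against 1217, 1504 and 1258 CPM (log2 -0.43, SE 0.11, adjusted p = 0.0303). Rps3, a small-subunit protein near the entry of mRNA, was at 1938, 1985 and 1836 CPM against 1573, 1275 and 1178 CPM (log2 -0.50, SE 0.11, adjusted p = 0.0183). Every cDKO library was below every control library for these 3 genes at 0 min.

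Rpl22l1 is a paralog of Rpl22 that can replace it in the ribosome. It was at 222, 199.9 and 201 CPM in control and 316, 283 and 378 CPM in cDKO at 0 min (log2 0.66, SE 0.11, adjusted p = 0.00585), and every cDKO value was above every control value. The change was 0.52 at 60 min, 0.54 at 180 min and 0.26 at 540 min. Rpl22 was at 1135 ± 53.6 CPM in control and 1201 ± 123 CPM in cDKO at 0 min (SD, n = 3) and was not called at any time. Rpl35a (-0.49) and Rps21 (-0.36) were the other members called at 0 min. At 60 min Rps27l (-0.40), Rpl7l1 (-0.32) and Rpl27a (-0.27) were also lower. At 180 min the largest fall was that of Rps27 (-1.45, SE 0.45, adjusted p = 0.0495), which had only 686 reads in all. Rpl35a was lower there too (-0.48), with 7 others (Rps28, Rps21, Rpl38, Rps27l, Rpl37a, Rpl27a and Rps24). At 540 min Rpl37a (-0.32) and Rpl35a (-0.32) were lower, with Rps24, Rpl38 and Rpl32. The Rpl35a call at 540 min was lost under several settings (adjusted p up to 0.149). Rpl7a (0.35), Rps9 (0.29) and Rpl26 (0.23) were higher at 540 min, with Rpl37 and Rps18. The highest adjusted p over the settings was 0.972 for Rps18, 0.0990 for Rpl37 and 0.0771 for Rpl26, and 0.0439 for Rps9. Rpl7a, also called higher at 180 min (0.23), had changes of -0.12 and -0.03 with unique reads at the 2 times, as 93.1% of its reads were multimapping, so that its direction is uncertain. Rps14, which is lost with part of human chromosome 5q in myelodysplasia, was higher only at 180 min (0.24). Rps6, a target of the kinases that act below mTOR, was at 74.6 ± 7.69 CPM in control and 71.2 ± 13.0 CPM in cDKO, and Rps27a, made as a fusion with ubiquitin, at 263 ± 5.19 and 255 ± 10.3 CPM, and neither was called. Rpl32l (1.67 at 540 min) stood outside the spread of members, with 223 reads in all, as did Rpl12, Rps19 and Rpl35 at 60 or 180 min.

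**Figure D5:**
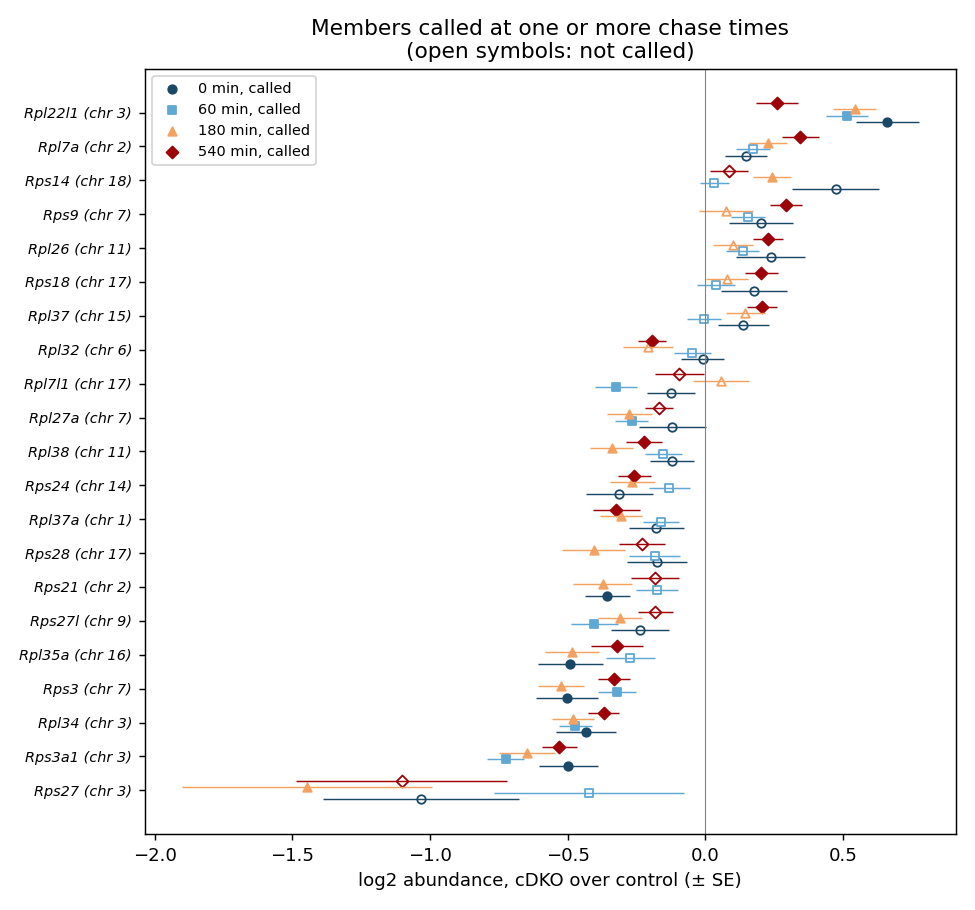
Log2 change of abundance in cDKO against control at 0, 60, 180 and 540 min for 21 of the 22 members called at least once (bars are SE, filled symbols are called, and the chromosome stands beside the name). Rps3a1, Rpl34 and Rps3 were called lower and Rpl22l1 higher at each time.

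Chromosome 3 carries Rps3a1, Rpl34, Rpl22l1 and Rps27. Over all genes tested on this chromosome, the median log2 change in cDKO was -0.51, -0.48, -0.52 and -0.52 at 0, 60, 180 and 540 min, and it was 0.02 elsewhere at 0, 60 and 180 min. At 0 min 42.0% of its genes were called, against 11.9% of other genes, and at 540 min 56.6% against 17.4%. The lower Rps3a1 (-0.50) and Rpl34 (-0.43) at 0 min were thus close to the chromosome's median, while Rpl22l1 (0.66) went the other way. Leaving out the genes of chromosome 3 takes Rps3a1, Rpl34 and Rpl22l1 out of the members called, and left 3 at 0 min and 4 at 60 min. Leaving out any 1 of the 3 control libraries at 0 min left 1 member called, and leaving out cDKO replicate 1 left 3. At 60 min the count was 4 without control replicate 3 and 12 without cDKO replicate 3. At 180 min it was 8, 6 and 5 without control replicate 1, 2 and 3, and at 540 min 6, 5 and 6, and 7 without cDKO replicate 1.

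Over the chase in control, 19 of 76 members were called between 0 and 540 min (6 higher and 13 lower at 540 min), where 16.2% of genes were called. Among the largest falls were those of Rps25 (-0.51, adjusted p = 0.00449), Rpl4 (-0.44), Rps26 (-0.35) and Rps27l (-0.28). Rpl7 rose most, from 12.4, 10.5 and 8.95 CPM to 27.7, 24.6 and 23.0 CPM (log2 1.21, adjusted p = 0.000584). In cDKO it was at 14.4, 15.7 and 11.4 CPM, then 32.3, 24.2 and 22.4 CPM. Rps14 (0.38), Rpl32 (0.24), Rpl22l1 (0.24) and Rpl3 (0.20) followed. In cDKO 0 of 76 members were called, where 0.117% of genes were, with 7 members at an unadjusted p under 0.05 and 0 by DESeq2. The difference between genotypes in the change over the chase was called in 0 of 77 members and in 0% of genes, with 3 members at an unadjusted p under 0.05. That the control alone had calls is therefore not shown to differ between genotypes. Without control replicate 2 or 3, 8 and 7 members were called in control.

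The pairs of paralogs differed in level. Rpl3, at 521 ± 40.7 CPM at 0 min in control, stood above Rpl3l, with 89 reads in all, and Rpl10 at 793 ± 74.0 CPM stood above Rpl10l at 0 reads. Rpl7 and Rpl7l1 were at 10.6 ± 1.72 and 159 ± 3.24 CPM, Rpl39 at 706 ± 46.2 CPM and Rpl39l at 0 reads. Rps27l was at 342 ± 32.5 CPM and Rps27 at 7.99 ± 1.19 CPM. These are 3′-end reads, which do not scale with transcript length, and they count what fell within the annotated interval alone. Reads of Rps27l had rates of 1.54%, 1.82% and 1.65% at 0 min and 0.798%, 0.816% and 0.819% at 540 min in control, with 48.7 ± 3.61% left.

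Other genes of the ribosome and of its regulation were taken as lists. The 8 further genes of the cytoplasmic ribosome (among them Rpsa, Rplp0, Rplp1, Rplp2, Fau, Rack1 and Rpl36al) kept a median of 76.9% of their rate at 540 min in control and 79.9% in cDKO, close to the members. All 8 were called slower than the library in control and 7 in cDKO. The 15 translation factors and other TOP genes kept 50.1% and 53.1%, with 12 of 15 slower and 1 faster in control and 11 slower in cDKO. Mitochondrial ribosomal proteins kept 13.6% and 22.7% (76 genes; 13 slower and 36 faster in control), biogenesis factors 8.26% and 13.6% (40 genes; 5 slower and 27 faster) and mTOR and LARP1 regulators 6.78% and 9.76% (14 genes; 11 faster). In abundance, 1, 3, 3 and 4 of the 15 translation factors and TOP genes were called at 0, 60, 180 and 540 min, each time higher in cDKO, and Hnrnpa1, which takes part in splicing, was called each time. For the mitochondrial ribosomal proteins 7, 8, 11 and 10 of 77 were called. Over all genes tested, 13.4%, 20.2%, 18.9% and 19.2% were called at these times. Of the biogenesis factors 17 of 40 were lower at 540 min than at 0 min in control, where 836 of 10226 genes were called lower. In cDKO 0 of the 40 were called over the chase, and 0 in the difference between genotypes.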

How the data were processed

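The authors labelled cells with 2.9 µM 4SU, prepared 3′-end libraries (QuantSeq FWD) and ran SlamDunk 0.4.3 on mm10 (GRCm38). Settings of alignment and filtering were not given in the sources used here. The deposited tables give, per 3′UTR interval, whole-number counts of reads, conversions and covered T positions, a conversion rate as a fraction, and CPM. The deposited fraction and CPM were not used for tests: both measures were recomputed from the counts, with CPM scaled to reads in 3′UTRs. Overlapping intervals of a gene were reduced to the longest, and counts were summed per gene.

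Counts were tested with edgeR 4.0.16 (quasi-likelihood, TMM; R 4.3.3) over all genes tested, with Benjamini-Hochberg adjustment at 0.05, and with DESeq2 1.42.0 as an alternative. Conversion tests used the log of T coverage times the library-wide rate as offset (T coverage alone for the decay difference). They took genes with a T coverage of at least 100 in each library of the test and at least 50 conversions. Half-lives followed a single exponential bounded at 1 and 10000 min, with SD under 0.3 at 0 min. The scripts were tested on simulated data. Groups and replicate numbers came from the labels. Between genotypes, and in control over the chase, same-numbered libraries did not deviate together (correlations -0.071 to 0.101 and -0.026 to 0.110); in cDKO over the chase they did (0.262 to 0.705), so numbers pair the cDKO libraries over the chase. No 2 libraries were duplicates. The libraries carry no molecular identifiers, so limits cover counting error only. The members and lists were chosen with earlier results of these data known. Named genes were: the 5 most abundant members; up to 5 called per direction; the 5 longest and shortest half-lives; paralog pairs; Rpl5, Rpl11, Rps6, Rps14, Rps19, Rpl13a and Rps27a; chromosome 3 members; the highest multimapping shares; and members over 3 scaled median absolute deviations from the members' median. A few genes are not reported here by name, and counts and medians include them.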

Additional observations from a re-analysis of the deposited data

How the results depend on the processing

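At 0 min, the abundance calls among members went from 6 to 13 with all 24 libraries in one fit and to 3 without chromosome 3, and ranged from 1 to 8 with a replicate left out. At 60 min, 7 became 11 with DESeq2, 11 with uniquely mapped reads and 4 without chromosome 3 (4 to 12 with a replicate left out). The lower counts without chromosome 3 are the removal of its own called members, Rps3a1, Rpl34 and Rpl22l1. At 180 min, 540 min and over the control chase, leaving out a replicate gave 5 to 16, 5 to 18 and 7 to 18. Labelling calls became 63 with the offset of T coverage alone (84.6% of genes). Calls of the decay difference became 3 of 71 with the library-wide rate in the offset (0.250% of genes). Slower or faster decay than the library was called in 23 members of each genotype among those with under 10% multimapping. The half-life ratio (0.16) became 0 with 0.1% background subtracted, 0.0306 with the floor of short-lived genes, 0 without 540 min, 0.0746 with a log-linear fit, 0.0882 with the replicate block, 0.21 with under 10% multimapping and 0.12 outside chromosome 3 (0 to 0.33 with a replicate left out). Over all genes the ratio (0.19) became 0.0451 with 0.1% background subtracted and 0.0917 with that floor. The members past the filter differed between settings, from 27 with 0.1% background subtracted to 61 without cDKO replicate 3. Without 540 min, 15 control and 20 cDKO half-lives of members stood at the upper bound. The cause was not tested. Directions turned for Rpl7a with unique reads (-0.12 at 180 min, -0.0319 at 540 min) and for Rps21 (-0.41), Rpl26 (-0.47) and Rpl8 (-0.66) with T coverage alone.

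With the replicate block, the numbers pair cDKO libraries over the chase: 0 members were called, as before, while all genes called went from 12 to 128. Elsewhere no pairing was seen, which does not exclude it, and the block gave 4, 7, 12 and 10 calls at 0, 60, 180 and 540 min. For all genes, DESeq2 called 123 over the cDKO chase and 207 in the decay difference (12 in each before). Of the values for single genes under the alternatives, 422 kept their direction and call, 79 lost the call and 5 turned. Low coverage, short intervals and multimapping limit these values.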
